A study of Mus musculus with 16 samples.

Results

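The genes described here are Sptlc3, Elovl4, Cers3, Cyp4f39, Pnpla1, Ugcg, Abca12, Alox12b and Aloxe3, which make, carry and oxidise the acylceramides of the epidermal barrier. They were chosen by symbol as 9 genes among the 19439 listed in at least 1 library of the series. All 9 were listed in all 16 libraries and all 9 were among the 15782 genes that passed the filter on low counts. Each library is the whole transcriptome of ear skin lesions from 1 BALB/c mouse aged 8 weeks, with 4 mice in each of 4 groups. The groups were mice given LPC (lysophosphatidylcholine, a phospholipid with a single fatty acid) and killed at day 7, mice given vehicle and killed at day 7, mice given LPC and killed at day 4, and mice given vehicle and killed at day 4. All 4 groups, vehicle included, carried imiquimod (IMQ), a drug applied to mouse skin to provoke psoriasis-like inflammation, so every value below is from inflamed skin and no skin without IMQ was analysed here. LPC was 10 µl of a 10 mM solution and vehicle was 10 µl of normal saline, each injected into the dermis of the ear daily over 6 days while IMQ was applied. The labels do not say how many injections the mice killed at day 4 had received.

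The outer layer of the epidermis keeps water in by stacks of lipid sheets between dead cells, and acylceramides are the lipids that are particular to it. A sphingoid base is made first, a very long fatty acid is built by repeated elongation and hydroxylated at its far end, and a ceramide synthase joins the base and the acid. Linoleate is then attached to the hydroxyl group, a glucose is added so that the lipid can be packed into lamellar granules, and after secretion lipoxygenases oxidise the linoleate before the ceramide is bound to the cornified cell. Loss of function of several of these genes causes ichthyosis, a disorder of dry and scaly skin, in humans.

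The libraries held between 18704197 and 20131513 expected counts each. All 22 pan-epidermal markers (such as the basal keratins Krt5 and Krt14) were detected in every library, with a summed level of 19295 to 49166 CPM (counts scaled to library size), so the tissue label fits its markers. RNA of other tissues in the ear varied as well. The mean level of 20 skeletal muscle genes was 6.87 ± 2.93 log2 CPM with LPC and 7.76 ± 1.12 with vehicle at day 7, and 4.78 ± 1.63 with LPC and 9.27 ± 1.82 with vehicle at day 4 (SD, n = 4 each). The LPC mice at day 7 split on this score, with mice 2 and 4 at 9.16 and 9.56 and mice 1 and 3 at 5.05 and 3.71. In whole skin, fewer cells of a type and less RNA per cell cannot be told apart.

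The promoters of 4 of the genes are shown because these genes form pairs that moved together across the 16 libraries (Cers3 with Ugcg, and Elovl4 with Sptlc3, described further on). Each stretch is the 300 bases from 250 before to 50 after the gene's start in RefSeq on build GRCm38.p6, read 5′ to 3′ along the gene's strand. Capitals mark matches to the GC box (GGGCGG on either strand) and to the TFAP2 motif (GCCNNNGGC).
Cers3, chr7:66743254-66743553, plus strand: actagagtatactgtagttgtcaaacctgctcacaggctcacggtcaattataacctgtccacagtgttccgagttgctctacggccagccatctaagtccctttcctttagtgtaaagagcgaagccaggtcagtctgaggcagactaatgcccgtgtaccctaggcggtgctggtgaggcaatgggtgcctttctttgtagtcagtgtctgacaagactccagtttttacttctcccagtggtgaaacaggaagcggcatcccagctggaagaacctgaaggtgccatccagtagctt
Ugcg, chr4:59189300-59189599, plus strand: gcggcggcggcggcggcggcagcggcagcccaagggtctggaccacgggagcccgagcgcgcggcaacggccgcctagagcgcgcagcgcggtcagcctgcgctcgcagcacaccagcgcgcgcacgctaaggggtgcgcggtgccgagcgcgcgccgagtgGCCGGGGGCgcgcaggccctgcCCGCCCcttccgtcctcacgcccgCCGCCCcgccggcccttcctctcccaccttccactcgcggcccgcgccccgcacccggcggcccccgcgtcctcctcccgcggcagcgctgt
Elovl4, chr9:83806256-83806555, minus strand: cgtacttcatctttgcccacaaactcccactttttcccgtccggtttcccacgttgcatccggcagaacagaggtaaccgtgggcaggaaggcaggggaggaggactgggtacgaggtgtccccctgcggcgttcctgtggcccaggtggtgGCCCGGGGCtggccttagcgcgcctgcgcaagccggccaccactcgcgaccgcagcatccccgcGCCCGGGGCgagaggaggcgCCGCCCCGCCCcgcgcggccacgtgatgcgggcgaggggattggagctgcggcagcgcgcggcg
Sptlc3, chr2:139493663-139493962, plus strand: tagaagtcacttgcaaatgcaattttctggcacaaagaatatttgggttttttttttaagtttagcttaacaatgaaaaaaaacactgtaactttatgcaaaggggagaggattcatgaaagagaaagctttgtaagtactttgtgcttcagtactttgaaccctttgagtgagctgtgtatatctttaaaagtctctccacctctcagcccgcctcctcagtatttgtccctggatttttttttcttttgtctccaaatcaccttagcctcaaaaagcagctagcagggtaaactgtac
Base composition differed within both pairs shown. Ugcg has 81.3% G and C against 50.7% in Cers3, and Elovl4 has 71.0% against 37.3% in Sptlc3, where the median of all 32851 promoter windows is 52.7%. Abca12, the gene closest to Cers3 across the libraries, has 51.3% and, like Cers3, no motif match. Ugcg holds 2 GC boxes and 1 TFAP2 match, Elovl4 holds 2 GC boxes that share a base and 2 TFAP2 matches, and Cers3 and Sptlc3 hold no match to any of the 7 motifs searched. The start that RefSeq gives for Cers3 in this table lies inside the annotated span of the gene.

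Promoters of 8 of the 9 genes were in the table, without Aloxe3. The GC box was found in 3 of the 8 (Elovl4, Ugcg and Alox12b) and in 35.7% of all promoter windows. The TFAP2 motif was found in the same 3 genes and in 16.6% of all windows. The KLF motif CCACCC was found in 1 of the 8, Pnpla1, and in 31.5% of all windows. No match in any of the 8 was found for the AP-1 motif TGANTCA (7.81% of all windows), the grainyhead motif AACNGGTT (2.09%), the TATA motif TATAAA (13.6%) or the PPAR/RXR direct repeat (0.381%). Both strands were searched. No GC box match overlaps a TFAP2 match in these genes. A match is only a run of letters, and its absence says nothing of the factor.

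The genes are scattered over the genome apart from the lipoxygenases. Aloxe3 (chromosome 11, 69125417 to 69149115) and Alox12b (chromosome 11, 69157072 to 69169791) are neighbours with 7956 bases between them on GRCm38.p6. Pnpla1 (28858286 to 28890308) and Cyp4f39 (32452697 to 32493320) are both on chromosome 17. Cers3 spans 66733118 to 66823692 on chromosome 7, Elovl4 83778692 to 83806305 on chromosome 9, Abca12 71243090 to 71414910 on chromosome 1, Ugcg 59189507 to 59222833 on chromosome 4 and Sptlc3 139493913 to 139637061 on chromosome 2. All 9 are annotated as protein coding. Cyp4f39 belongs to a family of related Cyp4f genes, and Alox12b and Aloxe3 have related lipoxygenase genes, so reads shared with relatives were divided by the authors' counting model.

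Levels were compared between genes in FPKM, which is scaled to transcript length. Elovl4, the elongase that makes the very long fatty acids, ranked first of the 9 in all 16 libraries, with 159.7 to 809 FPKM and a median of 310.3. The next were Alox12b (median 48.7 FPKM) and Cyp4f39 (46.0). Ugcg, Aloxe3, Cers3 and Sptlc3 had medians of 28.7, 26.3, 23.3 and 17.7 FPKM. Abca12 (11.1 FPKM) and Pnpla1 (10.9 FPKM) were lowest, and Pnpla1 ranked last in 10 libraries and Abca12 in the other 6.

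In no group did Elovl4 overlap the gene below it in FPKM. Below Elovl4, most neighbours in the order overlapped within every group, so their order is not fixed beyond the spread between mice. The gaps without overlap were between Cers3 and Aloxe3 with LPC at day 7, between Alox12b and Aloxe3 and between Cers3 and Abca12 with LPC at day 4, and between Cers3 and Pnpla1 with vehicle at day 4. With vehicle at day 7 no neighbours below Elovl4 were apart.

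**Figure D1:**
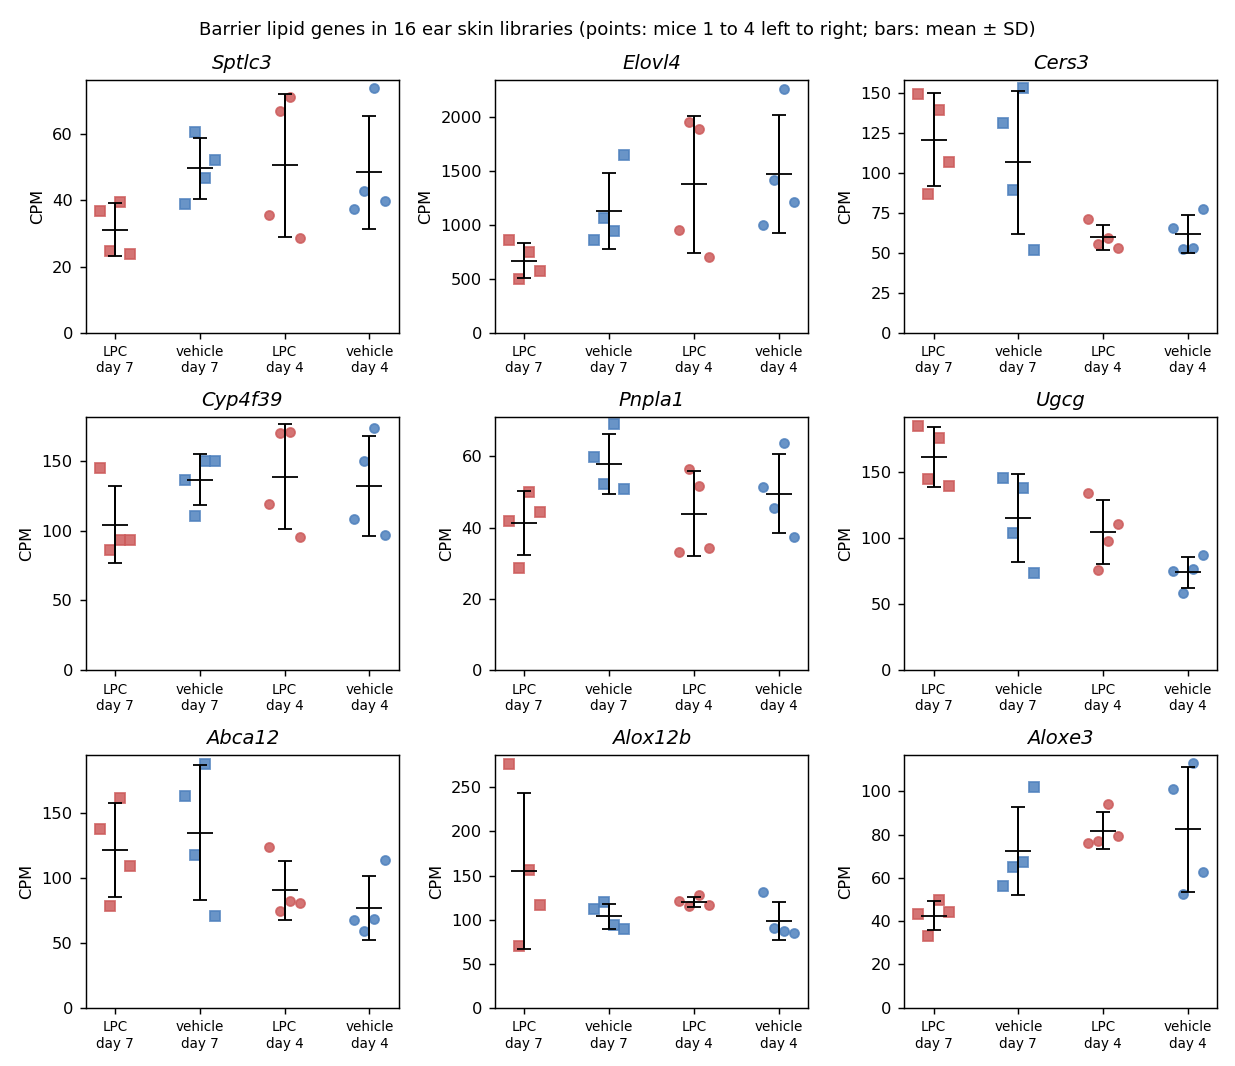
CPM (y axis, from 0) of the 9 genes in each group (x axis), with 1 point per mouse and bars for mean ± SD. Aloxe3 at day 7 lies between 33.2 and 49.7 CPM in LPC mice, below all 4 vehicle mice, and Cers3 in LPC mice at day 7 lies between 86.7 and 149.5 CPM, above all 4 LPC mice at day 4.

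Across the groups the 9 genes did not move as one. Cers3 rose and Aloxe3 fell in LPC mice at day 7 relative to LPC mice at day 4, and no other gene of the set passed the test in that comparison. No gene of the set passed in LPC mice against vehicle mice at day 7 or at day 4, or in vehicle mice between the days. The test was edgeR's quasi-likelihood test with Benjamini-Hochberg adjustment over all 15782 genes, and a gene was called at an adjusted p below 0.05. Of all genes tested, 11% were called between the days with LPC, and 6.87% were called higher and 4.13% lower at day 7, against 1 of 9 higher and 1 of 9 lower here.

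Sptlc3 encodes a subunit of serine palmitoyltransferase, which makes the sphingoid base. It had 36.8, 24.7, 39.4 and 23.7 CPM in LPC mice at day 7, against 39.0, 60.7, 46.9 and 52.2 CPM in vehicle mice at day 7. At day 4 it had 35.6, 67.0, 71.2 and 28.7 CPM in LPC mice and 37.5, 42.9, 74.0 and 39.9 CPM in vehicle mice. The day 7 groups touched only through LPC mouse 3 and vehicle mouse 1, while at day 4 the LPC mice alone spanned nearly the whole range. The day 7 difference between LPC and vehicle was -0.67 ± 0.30 on the log2 scale (SE), with an edgeR adjusted p of 0.231. Between the days in LPC mice the difference was -0.70 ± 0.30 (edgeR adjusted p = 0.132).

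Elovl4 had 859, 495, 746 and 572 CPM in LPC mice at day 7, against 861, 1063, 945 and 1651 CPM in vehicle mice at day 7. At day 4 it had 957, 1956, 1889.9 and 705 CPM in LPC mice and 1003, 1414, 2262 and 1216 CPM in vehicle mice. All 4 LPC values at day 7 lay below the vehicle values, with mouse 1 of each group nearly touching. LPC against vehicle at day 7 gave -0.76 ± 0.35 on the log2 scale (SE, edgeR adjusted p = 0.242). Day 7 against day 4 with LPC gave -1.04 ± 0.35 (SE, edgeR adjusted p = 0.0656), and the groups overlapped through LPC mouse 4 at day 4. Elovl4 had the widest range of the 9 genes over the 16 libraries, with the highest CPM 4.57 times the lowest.

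Cers3, the ceramide synthase that accepts very long acyl chains, had 149.5, 86.7, 139.6 and 107 CPM in LPC mice at day 7, against 131, 89.4, 153 and 52.0 CPM in vehicle mice at day 7. It had 71.0, 55.7, 59.2 and 53.1 CPM in LPC mice at day 4, and 65.2, 52.3, 52.7 and 77.4 CPM in vehicle mice at day 4. All 4 LPC mice at day 7 were above all 4 LPC mice at day 4, which were other animals. Likewise 3 of the 4 vehicle mice at day 7 were above all 4 vehicle mice at day 4. Vehicle mouse 4 at day 7 sat at the lowest level of all 16. Cers3 averaged 121 ± 29.1 CPM in LPC mice at day 7 and 59.7 ± 7.91 CPM in LPC mice at day 4 (SD, n = 4 each), and it rose by 1.01 ± 0.27 on the log2 scale (SE, edgeR adjusted p = 0.0317). In vehicle mice the averages were 106 ± 44.9 CPM at day 7 and 61.9 ± 11.9 CPM at day 4 (SD, n = 4 each), a difference of 0.78 ± 0.27 (SE) that did not pass (edgeR adjusted p = 0.266). LPC against vehicle gave 0.18 ± 0.27 (SE) at day 7, with an edgeR adjusted p of 0.78.

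The Cers3 call was lost when any of 5 libraries was left out. Without LPC mouse 1, 2, 3 or 4 at day 4 the log2 difference was 1.11, 0.98, 1.01 or 0.96, with edgeR adjusted p of 0.0511, 0.087, 0.0818 or 0.0643. Without LPC mouse 1 at day 7 it was 0.90 (edgeR adjusted p = 0.057). With the muscle score as a covariate the call was lost as well (1.03 ± 0.29, SE, edgeR adjusted p = 0.0542). Without vehicle mouse 4 at day 7, Cers3 passed between the days in vehicle mice as well (edgeR adjusted p = 0.0437).

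Cyp4f39, whose human counterpart CYP4F22 hydroxylates the far end of the fatty acid, had 145, 86.3, 93.2 and 93.2 CPM in LPC mice at day 7, against 137, 110.5, 149.7 and 149.8 CPM in vehicle mice at day 7. LPC mouse 1 stood above the other 3 LPC mice and within the vehicle range. At day 4 it lay between 95.7 and 171 CPM in LPC mice and between 96.8 and 174 CPM in vehicle mice. LPC against vehicle gave -0.39 ± 0.23 (SE) at day 7 (edgeR adjusted p = 0.389) and 0.07 ± 0.23 at day 4 (edgeR adjusted p = 0.893).

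Pnpla1 encodes the transacylase that attaches linoleate and completes the acylceramide. It had 41.9, 28.8, 49.98 and 44.2 CPM in LPC mice at day 7, against 59.6, 52.1, 68.9 and 50.8 CPM in vehicle mice at day 7. All 4 LPC values lay below the 4 vehicle values, by a small margin between LPC mouse 3 and vehicle mouse 4, and the difference of -0.49 ± 0.22 (SE) had an edgeR adjusted p of 0.223. At day 4 the groups overlapped, with 33.2 to 56.5 CPM in LPC mice and 37.3 to 63.8 CPM in vehicle mice.

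Ugcg, the glucosylceramide synthase, had 185, 144, 175 and 139 CPM in LPC mice at day 7, against 145, 104, 138 and 73.5 CPM in vehicle mice at day 7. At day 4 it had 134, 75.9, 97.8 and 110.1 CPM in LPC mice and 75.2, 58.4, 76.2 and 86.6 CPM in vehicle mice. Every LPC mouse at day 7 stood above every LPC mouse at day 4, while LPC and vehicle mice overlapped at both days. The difference between LPC and vehicle was 0.49 ± 0.21 at each day (SE), with edgeR adjusted p of 0.22 at day 7 and 0.225 at day 4. Between the days it was 0.62 ± 0.21 (SE, edgeR adjusted p = 0.0704) with LPC and 0.63 ± 0.21 (SE, edgeR adjusted p = 0.256) with vehicle.

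Abca12, the transporter that loads lipid into lamellar granules, had 138, 78.5, 162 and 109 CPM in LPC mice at day 7, against 163, 118, 188 and 70.5 CPM in vehicle mice at day 7. It had 124, 74.8, 82.6 and 80.95 CPM in LPC mice at day 4, and 68.1, 59.0, 68.3 and 114 CPM in vehicle mice at day 4. LPC and vehicle overlapped widely at both days, and vehicle mouse 4 at day 7 again had the lowest value of its group. The largest difference was that between the days in vehicle mice, 0.81 ± 0.31 on the log2 scale (SE, edgeR adjusted p = 0.294). With LPC it was 0.43 ± 0.30 (SE, edgeR adjusted p = 0.351).

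Alox12b, the lipoxygenase that oxidises the linoleate of acylceramides, had 276, 70.6, 157 and 116 CPM in LPC mice at day 7, against 112, 119.6, 94.2 and 89.1 CPM in vehicle mice at day 7. It had 122, 116, 127 and 116 CPM in LPC mice at day 4, and 131, 90.2, 87.3 and 85.02 CPM in vehicle mice at day 4. LPC mice at day 7 held both the highest and the lowest Alox12b value of all 16 libraries, from mice 1 and 2. LPC against vehicle gave 0.58 ± 0.30 at day 7 (SE, edgeR adjusted p = 0.298). A fit without LPC mice 2 and 4 at day 7, the mice with the higher muscle score, was added after the data were seen. In that fit Alox12b passed between LPC and vehicle at day 7 with 1.096 ± 0.22 (SE, edgeR adjusted p = 0.0054). The same fit called 1723 genes higher and 1721 lower in all. It left out the lowest Alox12b value of the series, so it cannot show a rise apart from the choice of mice.

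Aloxe3, the isomerase that acts on the product of Alox12b, had 43.3, 33.2, 49.7 and 44.1 CPM in LPC mice at day 7, against 56.1, 64.8, 67.2 and 102 CPM in vehicle mice at day 7. It had 76.3, 77.1, 94.3 and 79.6 CPM in LPC mice at day 4, and 101, 52.8, 113 and 63.0 CPM in vehicle mice at day 4. The LPC mice at day 7 lay below every other mouse of the series. Aloxe3 averaged 42.6 ± 6.86 CPM in LPC mice at day 7 and 81.8 ± 8.45 CPM in LPC mice at day 4 (SD, n = 4 each), and it fell by 0.94 on the log2 scale (SE 0.24, edgeR adjusted p = 0.0252). LPC against vehicle at day 7 gave -0.77 ± 0.24 (SE), which did not pass (edgeR adjusted p = 0.0815). Between the days in vehicle mice it gave -0.18 ± 0.23 (SE, edgeR adjusted p = 0.775).

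The Aloxe3 call between the days was lost without LPC mouse 2 or 3 at day 4, where the log2 difference was -0.97 or -0.87 (edgeR adjusted p = 0.0562 or 0.0729). It was also lost without LPC mouse 2 at day 7, with -0.84 (edgeR adjusted p = 0.0659), and with the muscle score as a covariate (-0.81 ± 0.25, SE, edgeR adjusted p = 0.0671). Without LPC mice 2 and 4 at day 7 it was -0.82 (edgeR adjusted p = 0.086). When libraries were scaled on the epidermal markers alone, Cers3 still passed (1.15, edgeR adjusted p = 0.0129) and Aloxe3 did not (-0.78, edgeR adjusted p = 0.132). Ugcg passed under that scaling (0.80, edgeR adjusted p = 0.0425).

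**Figure D2:**
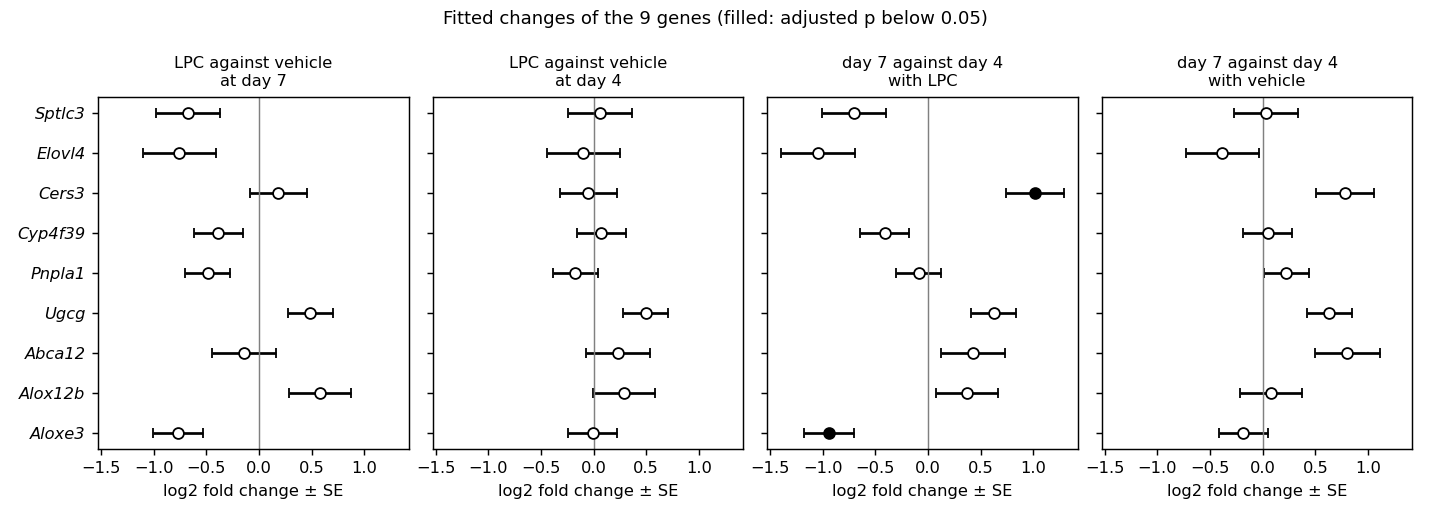
Log2 fold change ± SE (x axis) of the 9 genes (y axis, in pathway order) in 4 comparisons, with filled points where the adjusted p was below 0.05. The 2 filled points are Cers3 at 1.01 and Aloxe3 at -0.94, both in day 7 against day 4 with LPC.

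LPC against vehicle at day 7 gave differences of both signs without any passing, and those of Cers3 and Abca12 (-0.15 ± 0.30, SE) were smaller than their SE. The differences were positive for Alox12b, Ugcg and Cers3 and negative for the other 6, with a median of -0.39 against 0.02 over all genes tested. Of all genes, 3.83% were called in this comparison (2.38% higher and 1.44% lower with LPC), and edgeR called 0 of the 9. An unadjusted p below 0.05 was found for 5 of the 9 and for 3114 of the 15782 genes tested. DESeq2 called Aloxe3 alone of the 9, and 942 genes higher and 506 lower in all. Limma on FPKM called 0 of the 9. The values of the groups did not overlap for 3 genes (Aloxe3, Elovl4 and Pnpla1, all lower with LPC), against 10.9% of all genes. In the same comparison the mean of 15 suprabasal keratinocyte markers (such as Krt10 and Flg) was 8.32 ± 0.29 log2 CPM with LPC and 9.45 ± 0.23 with vehicle (SD, n = 4 each). Of these 15 markers 6 were called lower and 0 higher, with a median difference of -1.09, and their part in the result was not tested.

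LPC against vehicle at day 4 showed the smallest differences. Ugcg had the largest, and the other 8 lay between -0.17 (Pnpla1) and 0.29 (Alox12b), with a median over the 9 of 0.06 against 0.00 over all genes. Of all genes 0.139% were called, 0.095% higher and 0.0444% lower with LPC. Of the 9, edgeR called 0, DESeq2 0 and limma on FPKM 0. An unadjusted p below 0.05 was found for 1 of the 9 and for 3025 of the 15782 genes tested. No gene of the set had groups without overlap, against 16.1% of all genes.

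Between the days, LPC mice had 3 genes with groups that did not overlap (Cers3 and Ugcg higher, Aloxe3 lower at day 7), against 17.1% of all genes. Vehicle mice had none, against 6.21% of all genes. In vehicle mice edgeR called 0% of all genes and 0 of the 9, and DESeq2 and limma on FPKM also called 0 of the 9. An unadjusted p below 0.05 was found there for 3 of the 9 (Cers3, Ugcg and Abca12) and for 2050 of the 15782 genes tested. That Cers3 and Aloxe3 passed with LPC and not with vehicle does not show that the days differed between treatments. The test of that difference gave 0.23 ± 0.38 for Cers3 (SE, edgeR adjusted p = 0.786) and -0.76 ± 0.33 for Aloxe3 (SE, edgeR adjusted p = 0.269). It called 0% of all genes and 0 of the 9 by edgeR, while DESeq2 and limma on FPKM called 0 of the 9. An unadjusted p below 0.05 was found for 1 of the 9, Aloxe3, and for 2674 of the 15782 genes tested.

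With the treatments averaged, a comparison added after the data were seen, Cers3 (0.90 ± 0.19, SE, edgeR adjusted p = 0.0157) and Ugcg (0.63 ± 0.15, SE, edgeR adjusted p = 0.0231) rose and Aloxe3 fell by 0.56 (SE 0.17, edgeR adjusted p = 0.0437) at day 7. Of all genes 10.7% were called in it, 6.82% higher and 3.92% lower at day 7. With the days averaged, LPC against vehicle gave 0.49 ± 0.15 for Ugcg (SE, edgeR adjusted p = 0.0744). There edgeR called 0 of the 9 and 4.07% of all genes (3.05% higher and 1.02% lower). An unadjusted p below 0.05 was found for 3 of the 9 and for 3864 of the 15782 genes tested. DESeq2 called 1 of the 9 (Ugcg), and 1109 genes higher and 683 lower in all. Limma on FPKM called 0 of the 9. The Ugcg call between the days was lost without LPC mouse 3 at day 4 or without vehicle mouse 1 or 3 at day 7. The Aloxe3 call was lost when any of 12 libraries was left out, and the Cers3 call held without each of the 16.

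The levels of the 9 genes across the 16 libraries formed blocks. Cers3 went with Abca12 (Pearson r of log2 CPM 0.90) and with Ugcg (0.84), and Abca12 with Ugcg (0.79). Elovl4 went with Sptlc3 (0.91), Cyp4f39 (0.81) and Aloxe3 (0.73), and Cyp4f39 with Sptlc3 (0.78). Every r between genes of different blocks was negative, but the strength varied widely. The r was -0.72 between Ugcg and Elovl4 and -0.62 between Cers3 and Aloxe3. It was only -0.25 between Cers3 and Cyp4f39, and -0.19 between Abca12 and Sptlc3 and between Abca12 and Cyp4f39. Pnpla1 was closest to Sptlc3 (0.68), and Alox12b had no partner above 0.48 (Ugcg). The neighbours Alox12b and Aloxe3 had r = -0.13. These correlations are descriptions over libraries that share groups and tissue makeup.

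**Figure D3:**
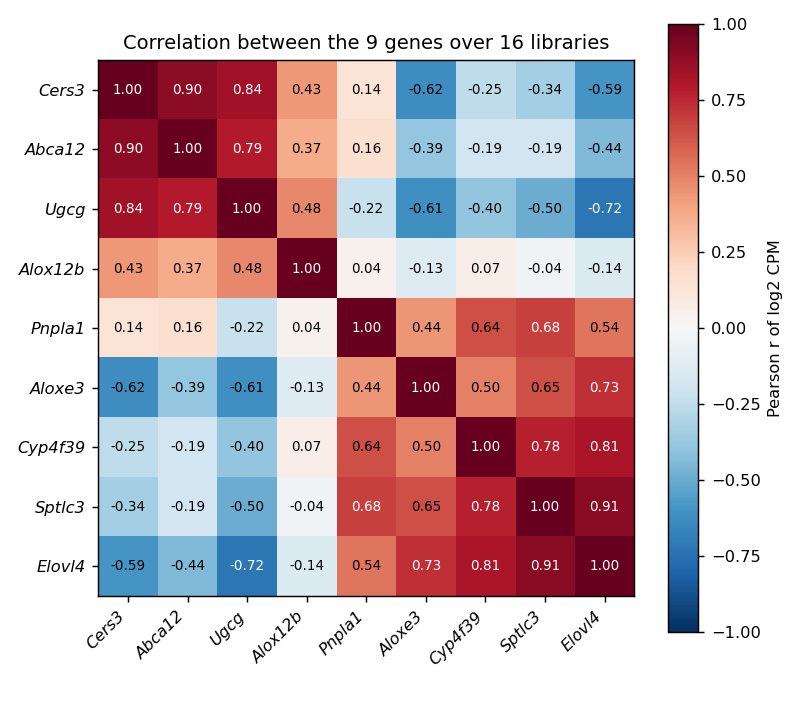
Pearson r between the log2 CPM of each pair of the 9 genes over 16 libraries (both axes list the genes, colour and number give r). Cers3, Abca12 and Ugcg form a block at the upper left with r of 0.79 to 0.90, and Elovl4, Sptlc3, Cyp4f39 and Aloxe3 form one at the lower right.

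Because of these blocks the mean profile of the 9 genes stood for few of them. Against the mean of the other 8, Pnpla1 had the highest r (0.66) and Ugcg the lowest (-0.08). The genes outside the set most like the mean profile were Ubqln1 (r = 0.90), Ncoa2 (0.86), Tmem30b (0.86), Scamp1 (0.85), Epb41l5 (0.84), Cep170b (0.83), Ssx2ip (0.83) and Sqle (0.83), each over 16 libraries.

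The same blocks lined up with sebaceous gland RNA. A score over 13 sebaceous genes (such as Scd1, Awat1 and Mc5r, with none at 0 in any library) was 5.34 ± 0.29 log2 CPM with LPC and 6.30 ± 0.58 with vehicle at day 7, and 6.55 ± 0.62 with LPC and 6.87 ± 0.44 with vehicle at day 4 (SD, n = 4 each). Their summed level was 1634 to 4375 CPM with LPC and 2703 to 8816 CPM with vehicle at day 7, and 3234 to 7879 CPM with LPC and 3556 to 10468 CPM with vehicle at day 4. In LPC mice at day 7, 5 of the 13 were called lower than in LPC mice at day 4 and 0 higher, and 1 was called lower than in vehicle mice at day 7. The shares of all genes called lower were 4.13% in the first of these comparisons and 1.44% in the second.

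Elovl4 followed this score most closely, with Pearson r = 0.91 and Spearman rho = 0.94 (two-sided permutation p = 2e-05 for each, 0.00054 and 0.00108 when adjusted over 54 relations of 9 genes and 6 marker scores). Its r was 0.92 without the 2 libraries farthest from the median score and 0.83 within groups. Permutation p here and below belong to r and rho over all 16 libraries, so differences between group means enter them. No p is given for r within groups. Ugcg ran against the score, with r = -0.88 and rho = -0.87 (permutation p = 2e-05 and 6e-05, adjusted 0.00054 and 0.00162), -0.86 without those 2 libraries and -0.71 within groups. Vehicle mouse 4 at day 7, whose score of 7.13 was the highest of its day, had the highest Elovl4 and Aloxe3 and the lowest Cers3, Ugcg and Abca12 of the vehicle mice at day 7.

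Aloxe3 (r = 0.78, rho = 0.80, permutation p = 0.00048 and 0.00029, adjusted 0.0085 and 0.00522) kept 0.74 without those 2 libraries and 0.48 within groups. Sptlc3 (r = 0.73, rho = 0.77, permutation p = 0.00133 and 0.00073, adjusted 0.0103 and 0.00657) kept 0.75 and 0.64. Cers3 had r = -0.77 and rho = -0.76 (permutation p = 0.00063 and 0.00124, adjusted 0.0085 and 0.00957), with -0.71 and -0.60 in the same checks. Cyp4f39 had r = 0.68 and rho = 0.77 (permutation p = 0.00422 and 0.00051, adjusted 0.0207 and 0.00626), with 0.57 and 0.66. Abca12 had r = -0.64 and rho = -0.61 (permutation p = 0.00882 and 0.0138, adjusted 0.0298 and 0.0438), with -0.53 and -0.61. For Pnpla1 and Alox12b r was 0.39 and -0.39, and neither passed (adjusted permutation p = 0.243 for each).

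With the sebaceous score as a covariate, an alternative added after the data were seen, neither call between the days with LPC held. Cers3 then gave 0.38 ± 0.35 (SE, edgeR adjusted p = 0.652) and Aloxe3 -0.53 ± 0.29 (SE, edgeR adjusted p = 0.448), and 0 genes in all were called by edgeR in that fit. The score and the group moved together, so that fit cannot tell them apart.

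**Figure D4:**
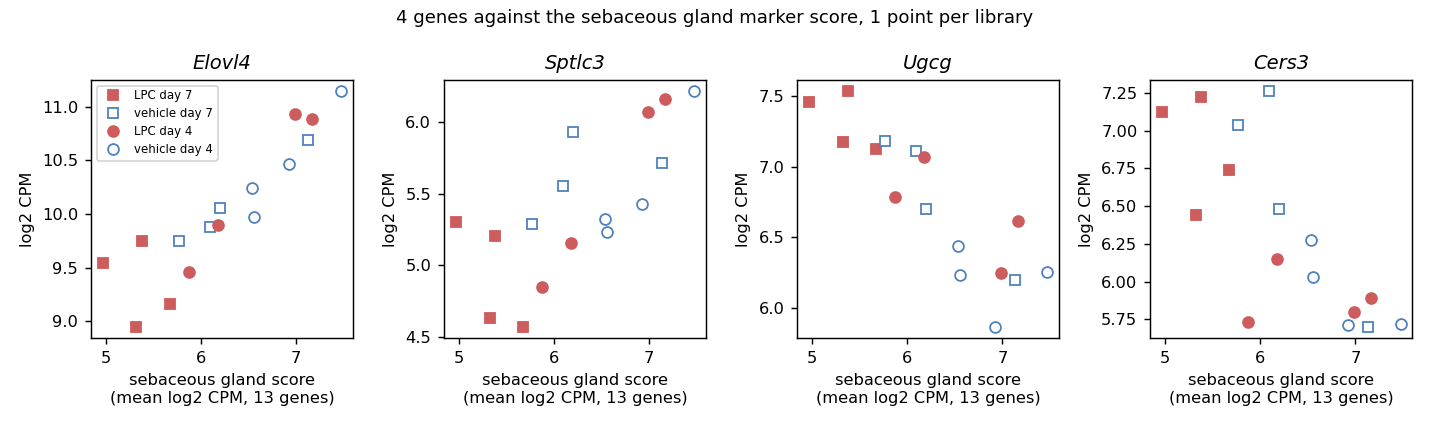
Log2 CPM (y axis) of Elovl4, Sptlc3, Ugcg and Cers3 against the sebaceous gland score (x axis, mean log2 CPM of 13 genes), with 1 point per library, squares for day 7, circles for day 4, filled for LPC and open for vehicle. Elovl4 and Sptlc3 go up with the score (r of 0.91 and 0.73) and Ugcg and Cers3 go down (r of -0.88 and -0.77).

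Other marker scores moved with genes of the set as well, the neutrophil and hair follicle scores with several of them. Alox12b followed the pan-epidermal score (r = 0.67, rho = 0.71, permutation p = 0.00529 and 0.00329, adjusted 0.022 and 0.0145), with 0.54 without the 2 farthest libraries and 0.82 within groups. Pnpla1 followed the suprabasal score (r = 0.66, rho = 0.73, permutation p = 0.00589 and 0.00184, adjusted 0.0227 and 0.0105), with 0.61 and 0.58. The score of 12 neutrophil genes was 6.67 ± 0.98 log2 CPM with LPC and 4.17 ± 1.14 with vehicle at day 7 (SD, n = 4 each). Aloxe3 ran against it (r = -0.74, rho = -0.69, permutation p = 0.00089 and 0.00385, adjusted 0.00961 and 0.0148), with -0.63 and -0.58 in the same checks. Adjusted permutation p of r was also below 0.05 with this score for Elovl4 (r = -0.72), Ugcg (0.67), Sptlc3 (-0.63) and Cers3 (0.58). Without the 2 farthest libraries these r were -0.67, 0.58, -0.55 and 0.43, and within groups -0.54, 0.39, -0.43 and 0.57. For Cers3 the rho of 0.49 did not pass (adjusted permutation p = 0.136). With the hair follicle score r passed for Ugcg (-0.74), Abca12 (-0.71), Cers3 (-0.67) and Elovl4 (0.63). These r were -0.70, -0.52, -0.52 and 0.74 without the 2 farthest libraries and -0.68, -0.53, -0.51 and 0.57 within groups. No gene of the set had an adjusted permutation p below 0.05 with the muscle score, where the lowest was 0.0926 for Alox12b (r = -0.51). Within groups, however, r with the muscle score was -0.81 for Sptlc3, -0.65 for Elovl4 and -0.59 for Pnpla1. For the other genes it lay between -0.48 (Alox12b) and 0.02 (Ugcg). The part of these tissues in the gene levels was not tested.

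The balance between the 2 lipoxygenases of the pathway differed in LPC mice at day 7. Their FPKM ratio, Alox12b over Aloxe3, was 6.88, 2.29, 3.39 and 2.85 in LPC mice at day 7, against 2.15, 1.99, 1.51 and 0.944 in vehicle mice at day 7. It was 1.72, 1.62, 1.46 and 1.58 in LPC mice at day 4, and 1.40, 1.85, 0.835 and 1.46 in vehicle mice at day 4. All 4 LPC mice at day 7 stood above the other 12 mice, and the vehicle mice with the lowest ratios, mouse 4 at day 7 and mouse 3 at day 4, were those with the highest sebaceous score of their group. The ratio averaged 3.85 ± 2.07 with LPC and 1.65 ± 0.54 with vehicle at day 7 (SD, n = 4 each). It was chosen after its values were seen and has no test.

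**Figure D5:**
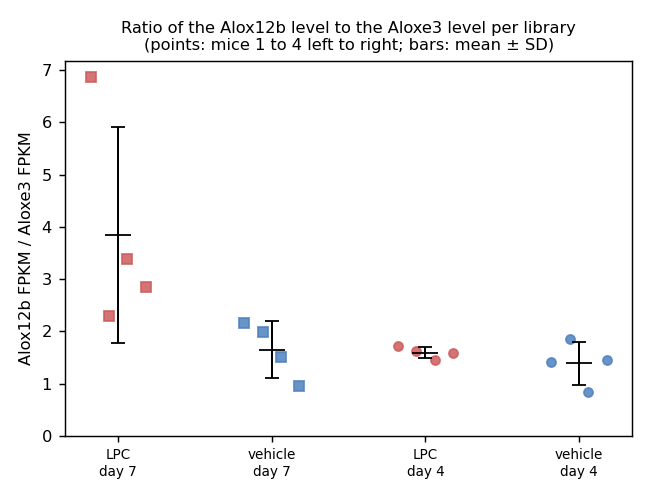
Ratio of Alox12b FPKM to Aloxe3 FPKM (y axis, from 0) in each group (x axis), with 1 point per mouse and bars for mean ± SD. The LPC mice at day 7 lie between 2.29 and 6.88, above all other mice.

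Of 91 other genes tested in 5 lists of barrier lipid metabolism and its regulators, 3 rose and 5 fell in LPC mice against vehicle mice at day 7. That is 8.79% of the lists, where 3.83% of all genes were called. The lists were chosen with earlier results of these data known, so the 2 shares cannot show an excess in these lists. Of 15 genes of sphingoid base and ceramide synthesis, 1 rose, Cers2 (a ceramide synthase for very long acyl chains, 0.50 ± 0.13, SE, edgeR adjusted p = 0.0479), and 0 fell. Of 17 genes of fatty acid supply, 1 fell, Elovl6, which elongates palmitate. It averaged 151 ± 47.1 CPM with LPC and 572 ± 360.4 CPM with vehicle (SD, n = 4 each) and fell by 1.92 (SE 0.46, edgeR adjusted p = 0.0341).

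Of 21 genes that process glucosylceramide, sphingomyelin and ceramide, 1 rose and 2 fell at day 7. Acer1, an epidermal ceramidase, averaged 61.5 ± 15.6 CPM with LPC and 153 ± 44.0 CPM with vehicle (SD, n = 4 each) and fell by 1.31 (SE 0.25, edgeR adjusted p = 0.0177). Lipm, a lipase of differentiated keratinocytes, averaged 68.1 ± 25.8 CPM with LPC and 171 ± 39.6 CPM with vehicle (SD, n = 4 each) and fell by 1.33 (SE 0.29, edgeR adjusted p = 0.0268). Asah1, the lysosomal acid ceramidase, rose by 0.53 ± 0.13 (SE, edgeR adjusted p = 0.033). Of 15 genes of the lipid envelope and of ichthyosis, 0 were called by edgeR. An unadjusted p below 0.05 was found for 4 of the 15 and for 3114 of the 15782 genes tested. The lowest p were those of Alox12e, an epidermal lipoxygenase (-2.73 ± 0.82, SE, edgeR adjusted p = 0.0749), and Tgm5, a transglutaminase (-0.61 ± 0.21, SE, edgeR adjusted p = 0.123).

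Of 23 regulators of epidermal differentiation, 1 rose and 2 fell at day 7. The nuclear receptor Rora averaged 66.4 ± 10.9 CPM with LPC and 142 ± 14.9 CPM with vehicle (SD, n = 4 each) and fell by 1.09 (SE 0.21, edgeR adjusted p = 0.0167). The grainyhead factor Grhl1 fell by 0.67 (SE 0.17, edgeR adjusted p = 0.0425), and Cebpb rose by 1.03 ± 0.26 (SE, edgeR adjusted p = 0.0402). All 8 of these day 7 calls were lost without LPC mouse 1 at day 7 and without vehicle mouse 4 at day 7, and between 2 and 7 held without each other library. All 8 were also lost under epidermal scaling and with only the 2 groups in the fit. At day 4 edgeR called 0 genes of the 5 lists in LPC against vehicle, where it called only 0.139% of all genes.

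Between the days with LPC, 18 of the 91 list genes were called, 5 higher and 13 lower at day 7. That is 19.8% of the lists, against 11% of all genes, with 6.87% of all genes higher and 4.13% lower. Here too the choice of the lists with earlier results known keeps these shares from showing an excess. In sphingoid base and ceramide synthesis 2 of 15 rose, Degs2, which makes phytoceramide (1.04 ± 0.31, SE, edgeR adjusted p = 0.042), and Sptssb, a small subunit of serine palmitoyltransferase (2.73 ± 0.75, SE, edgeR adjusted p = 0.0341). There 3 fell, Fa2h, the fatty acid 2-hydroxylase (-2.27 ± 0.61, SE, edgeR adjusted p = 0.0322), the ceramide synthase Cers4 (-1.89 ± 0.46, SE, edgeR adjusted p = 0.0228) and the ketoreductase Kdsr (-0.70 ± 0.18, SE, edgeR adjusted p = 0.0284). In fatty acid supply 3 of 17 fell and 0 rose, Elovl3 (-1.68 ± 0.42, SE, edgeR adjusted p = 0.0241), Elovl6 (-1.51 ± 0.45, SE, edgeR adjusted p = 0.0452) and Tecr, the reductase of the elongation cycle (-0.85 ± 0.26, SE, edgeR adjusted p = 0.045). Elovl3 is also one of the 13 sebaceous markers, as is Dgat2 of the same list, which was not called.

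In ceramide and sphingomyelin processing 1 of 21 rose, Asah1 (0.46 ± 0.13, SE, edgeR adjusted p = 0.0327), and 1 fell, Acer1 (-0.88 ± 0.25, SE, edgeR adjusted p = 0.0381). In the lipid envelope list 1 of 15 rose and 2 fell. Sdr9c7, a dehydrogenase that acts on the oxidised acylceramide after the lipoxygenases, averaged 88.5 ± 19.7 CPM at day 7 and 45.8 ± 10.2 CPM at day 4 (SD, n = 4 each) and rose by 0.95 ± 0.26 (SE, edgeR adjusted p = 0.0317). Alox12e averaged 3.78 ± 4.68 CPM at day 7 and 35.8 ± 13.2 CPM at day 4 (SD, n = 4 each) and fell by 3.23 (SE 0.83, edgeR adjusted p = 0.0277), and Hpgd, a prostaglandin dehydrogenase, fell by 1.56 (SE 0.41, edgeR adjusted p = 0.0307). Of the 23 regulators Cebpb rose and Rora, Gata3, Ahr and Grhl1 fell, with Rora at -1.14 ± 0.21 (SE, edgeR adjusted p = 0.00696) and Gata3 at -1.09 ± 0.22 (SE, edgeR adjusted p = 0.0116).

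Of these 18 calls, 2 held without LPC mouse 3 at day 4, 4 without LPC mouse 2 at day 4, and between 7 and 18 without each other library. Under epidermal scaling 4 of the 18 held, 7 with the muscle covariate and 9 with only the 2 groups in the fit. With the sebaceous score as a covariate 0 of the 18 and 0 of the 8 at day 7 held by edgeR. In vehicle mice between the days edgeR called 0 genes of the 5 lists and 0% of all genes. With the days averaged, 5 of the 91 list genes were called (5.49%, against 4.07% of all genes). They included Sptlc2, Sgms2 and Asah1, which were higher, and Acer1, which was lower with LPC. Of these 5 calls, 5 held with DESeq2 and 0 under epidermal scaling, with the muscle covariate or with the sebaceous covariate. All 5 were lost without LPC mouse 1 or 4 at day 4, without LPC mouse 1 or 3 at day 7 or without vehicle mouse 4 at day 7. With the treatments averaged, Sptlc2, Degs2, Asah1, Sdr9c7 and Tgm3 were higher and Cers4, Elovl3, Alox12e and Gata3 were lower at day 7. These 9 calls are 9.89% of the 91 list genes, near the 10.7% of all genes called there. Of the 9, 9 held with the muscle covariate, 1 under epidermal scaling and 0 with the sebaceous covariate. Only 2 held without vehicle mouse 3 at day 4 or without vehicle mouse 1 or 3 at day 7, and between 3 and 9 without each other library.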

How the data were processed

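Ear skin RNA of 16 mice was sequenced on a BGISEQ-500, per the labels' protocols. Reads were aligned to GRCm38 with Bowtie2 and quantified with RSEM, per the labels' protocols. For each gene the authors deposited an RSEM expected count and FPKM, which divides fragments by the length of the transcript and by library size, in 1 file per mouse. The labels do not state whether counting used strand. Genes absent from a mouse's file were set to 0. File names give other day numbers than the sample titles, and the titles were used.

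Expected counts were rounded and tested with edgeR 4.0.16 (R 4.3.3) by its quasi-likelihood test, with TMM scaling, filterByExpr, 1 term per group over all 16 libraries and Benjamini-Hochberg adjustment over 15782 genes (3657 were removed). CPM values are TMM-scaled, log2 CPM used a prior count of 2, and a standard error is the log2 fold change over the root of F. The common dispersion was 0.122, a biological coefficient of variation of 35%. The fit was tested on simulated data. Alternatives used DESeq2 1.42.0, limma 3.58.1 on log2(FPKM + 1) and log2(FPKM + 0.1), other scalings, no filter, covariates, a replicate block, only the groups compared and leaving out each mouse. Fits with a sebaceous covariate, without pairs of mice and averaged over days or treatments were added after the data were seen. Marker correlations used 100000 permutations, two-sided, for r and rho over all 16 libraries and not within groups.

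The 9 genes and all lists were chosen with earlier results of these data known. Of 252 list symbols 245 matched. Named genes are all 9, every called gene of the 5 pathway lists or else the 2 of a list with the smallest p at day 7, and the 8 genes most like the mean profile. A called gene of these lists is not reported here. Replicates are separate mice, and no mice of a group agreed within sampling noise. Mouse numbers were not taken as pairs.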

Additional observations from a re-analysis of the deposited data

Results flagged for a closer look

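Single mice stood far from the other 3 of their group in 2 of the 36 sets of 4 values examined (9 genes in 4 groups), and chance alone flags about 1 set in 20. Cyp4f39 in LPC mouse 1 at day 7 was at 145 CPM, against 86.3 to 93.2 CPM in the other 3 mice, a gap of 0.851 of the group's range where the critical value is 0.829. Alox12b in vehicle mouse 1 at day 4 was at 131 CPM, against 85.02 to 90.2 CPM in the other 3 mice, a gap of 0.863 of the range.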

How the results depend on the processing

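The counts of called genes moved with most choices, and the cause was not tested. In LPC against vehicle at day 7, 0 of the 9 genes and 604 genes in all were called. The total was 177 under epidermal scaling, 1448 with DESeq2 (1 of the 9), 9 with only the groups compared, 1151 with the muscle covariate (2 of the 9, Aloxe3 and Sptlc3), 0 with the sebaceous covariate, 3444 without LPC mice 2 and 4 at day 7 (1 of the 9, Alox12b) and 184 without vehicle mouse 3 at day 4 and vehicle mouse 4 at day 7. At day 4 it was 22, and 0 under epidermal scaling, 8 with no filter, 1104 with DESeq2, 40 and 38 with FPKM + 1 and FPKM + 0.1, 1361 with only the groups compared, 0 with the muscle covariate, 2 with the sebaceous covariate, 1795 without those LPC mice and 590 without those vehicle mice. Between the days with LPC it was 1736 with 2 of the 9, and 870 under epidermal scaling, 3073 with DESeq2 (4 of the 9), 1043 with only the groups compared, 847 with the muscle covariate (0 of the 9), 0 with the sebaceous covariate (0 of the 9), while 4 of the 9 were called without those vehicle mice. With vehicle it was 0, and 238 with DESeq2 and 4 without those vehicle mice. The difference between days in the LPC effect gave 0, and 1 each with RLE, epidermal scaling and FPKM + 1, 585 with DESeq2, 80 without those LPC mice and 56 without those vehicle mice. Averaged over days it was 642 with 0 of the 9, and 84 under epidermal scaling, 1792 with DESeq2 (1 of the 9), 281 with the muscle covariate (1), 2 with the sebaceous covariate, 5324 without those LPC mice (2) and 140 without those vehicle mice. Averaged over treatments it was 1695 with 3 of the 9, and 106 under epidermal scaling (1), 2632 with DESeq2 (5), 0 with the sebaceous covariate (0) and 2765 without those LPC mice.

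Called genes were split 160 higher and 17 lower at day 7 under epidermal scaling, against 376 and 228 with TMM, and 776 and 94 between the days with LPC, against 1084 and 652. That scaling moved the median of all genes to 0.06 at day 7, -0.46 at day 4, 0.23 between the days with LPC and -0.28 with vehicle. DESeq2 called 354 higher and 750 lower at day 4, against 15 and 7 with edgeR, and limma on FPKM + 1 called 576 higher and 939 lower between the days with LPC.

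Leaving out each mouse in turn gave 111 to 709 genes (0 to 0 of the 9) at day 7, 0 to 672 (0 to 0) at day 4, 515 to 2221 (0 to 3) between the days with LPC, 0 to 209 (0 to 1) with vehicle, 0 to 214 (0 to 0) for the difference, 141 to 1594 (0 to 0) averaged over days and 504 to 2897 (1 to 5) averaged over treatments. With the replicate block the totals were 351 at day 7, 2 at day 4, 901 between the days with LPC, 276 averaged over days and 801 averaged over treatments. The block kept Cers3 and Aloxe3 between the days with LPC, 5 of the 18 list calls there and 4 of the 8 list calls at day 7. Correlations of same-numbered mice were 0.099 to 0.54 between LPC and vehicle at day 4 and -0.60 to 0.15 in the other comparisons. At day 4, 2 of 4 mice correlated best with their own number, and 0 of 4 did in each other comparison. Of 2843 values for single genes under the alternatives, 2341 kept their side of the threshold, 473 lost the call and 27 gained it. The sign changed in 110 values, of which 108 had not been called to begin with. The 2 called values that changed sign did so with the sebaceous covariate, Elovl6 between the days with LPC (0.0346, edgeR adjusted p = 0.97) and Cers4 averaged over treatments (0.0401, edgeR adjusted p = 0.973). The spread between mice and the 4 mice a group limit the precision.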

Other observations

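Among the markers of other skin cells, LPC against vehicle at day 7 called 3 of 12 neutrophil genes higher (median log2 difference 2.44) and 1 of 12 macrophage genes higher (median 0.30) by edgeR's quasi-likelihood test with Benjamini-Hochberg adjustment, where 2.38% of all genes were called higher and 1.44% lower. It called 1 of 22 pan-epidermal genes lower. No adipocyte (14 genes), hair follicle (15), skeletal muscle (20), T cell (9) or fibroblast (10) gene was called by edgeR, and 1, 0, 0, 1 and 1 of them had an unadjusted p below 0.05. Of the 15782 genes tested, 3114 had an unadjusted p below 0.05.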
